A study of Mus musculus with 12 samples.

Results

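The oxidant defense of skeletal muscle was followed across the study in 10 genes: the superoxide dismutases Sod1 and Sod2, catalase (Cat), glutathione peroxidase 1 (Gpx1), the transcription factor Nrf2 (gene Nfe2l2) and its inhibitor Keap1, the Nrf2 targets Hmox1 and Nqo1, thioredoxin (Txn1) and the thioredoxin-binding protein Txnip. They were chosen by gene symbol, and all 10 were found among 23185 array entries that carry a single symbol, of 25206 entries in all. RNA from the skeletal muscle of 12 mice was hybridised to Affymetrix Mouse Gene 2.0 ST arrays, 1 array a mouse. Of the arrays, 5 came from mice given recombinant IL-8 at 50 µg/kg, 4 from mice given recombinant KC at 50 µg/kg, and 3 from mice given vehicle, 0.1% bovine serum albumin. All were injected intraperitoneally every other day for 6 days. The study's methods describe the IL-8 and vehicle muscles as tibialis anterior of male C57BL/6J mice of 8 weeks, taken on day 7. For the KC mice, strain, age and the day of harvest were not given in the sources used. IL-8 (CXCL8) is a human chemokine that attracts neutrophils, and KC (Cxcl1) is a mouse chemokine that acts on the same receptor, CXCR2. The comparisons asked how muscle expression of these genes differed between mice that received either chemokine and vehicle mice, and between the chemokines at the same dose.

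Superoxide leaking from respiration and from NADPH oxidases is turned into hydrogen peroxide by superoxide dismutases, Sod1 in the cytosol and Sod2 in mitochondria, and the peroxide is then removed by catalase, glutathione peroxidases and the thioredoxin-fed peroxiredoxins. Keap1 binds Nrf2 and hands it to a Cul3 ubiquitin ligase for destruction. Oxidants and electrophiles modify cysteines of Keap1, Nrf2 then accumulates, pairs with small Maf proteins and binds antioxidant response elements in genes such as Hmox1, Nqo1 and Gclm. Much of this control acts on protein, which arrays do not measure.

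Values are log2 levels after robust multi-array averaging (RMA), so a difference of 1 is a doubling, and levels of different genes are not set against each other. The array medians lay between 3.32 and 3.38 in the IL-8 group, 3.31 and 3.44 in the KC group and 3.36 and 3.48 in the vehicle group. The mean of 15 skeletal muscle fiber markers lay between 11.2 and 11.75 on every array. Liver transcripts set 3 arrays apart: IL-8 replicate 1 and vehicle replicates 2 and 4 had albumin (Alb) levels of 7.71 to 10.15, against 3.13 to 5.36 on the other 9. IL-8 replicate 5 also stood apart, with 38 genes more than 1 above every other array. A gene was called changed where limma gave an adjusted p (Benjamini-Hochberg, over all 23185 genes) no higher than 0.1 together with a change of 1.5-fold or more. By that rule 2 of 15 fiber and 2 of 12 endothelial markers were higher in IL-8 than in vehicle muscle, and 0 lower. Of 10 adipocyte markers 1 was lower and 0 higher, beside 2.55% of all genes called. The tissue makeup was thus not shown to be even across groups. Nothing in the labels says more about how far the mice of a group were independent, so the p-values measure the spread between these arrays.

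None of the 10 genes passed that threshold in any comparison. Before correction for the number of genes, Gpx1 was lower and Keap1 and Nfe2l2 were higher in IL-8 than in vehicle muscle at an unadjusted p under 0.05, and Cat, Nfe2l2 and Txnip were higher and Gpx1 lower in IL-8 than in KC muscle. KC muscle differed from vehicle muscle at that level for Nqo1 alone, which was higher. For IL-8 versus vehicle, limma called 0 of the 10 genes, beside 592 of 23185 genes (2.55%), of which 406 were higher. At an unadjusted p under 0.05, 3 of the 10 passed, beside 21.7% of all genes. At the same unadjusted limit the methods' t-test gave 2, beside 2289 of all genes, and the exact permutation test 2, beside 3441. For KC versus vehicle, limma called 0 of the 10 genes and 0 of 23185 (0%), and at an unadjusted p under 0.05 it found 1 of the 10, beside 3.98% of all genes. The methods' t-test then found 0, beside 690 of all genes, and the exact permutation test 1, beside 659. Between IL-8 and KC, 0 of the 10 genes were called, beside 3.02% of all genes (700 of 23185), and 4 of the 10 passed an unadjusted p under 0.05, beside 19.8% of all genes. The methods' t-test found 3, beside 3249 of all genes, and the exact permutation test 3, beside 4060. The groups did not overlap for 1 of the 10 genes in IL-8 versus vehicle (Keap1; 11.0% of all genes), for 1 in KC versus vehicle (Cat; 4.94%), and for 3 in IL-8 versus KC (Cat, Nfe2l2 and Txnip; 6.68%). In the first comparison the limma and non-overlap shares are near those of all genes. With 10 genes the other shares rest on at most 4 of them. Median log2 fold changes over the 10 genes were 0.10, 0.07 and 0.17 in IL-8 versus vehicle, KC versus vehicle and IL-8 versus KC, beside -0.07, -0.0043 and -0.05 over all genes.

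**Figure D1:**
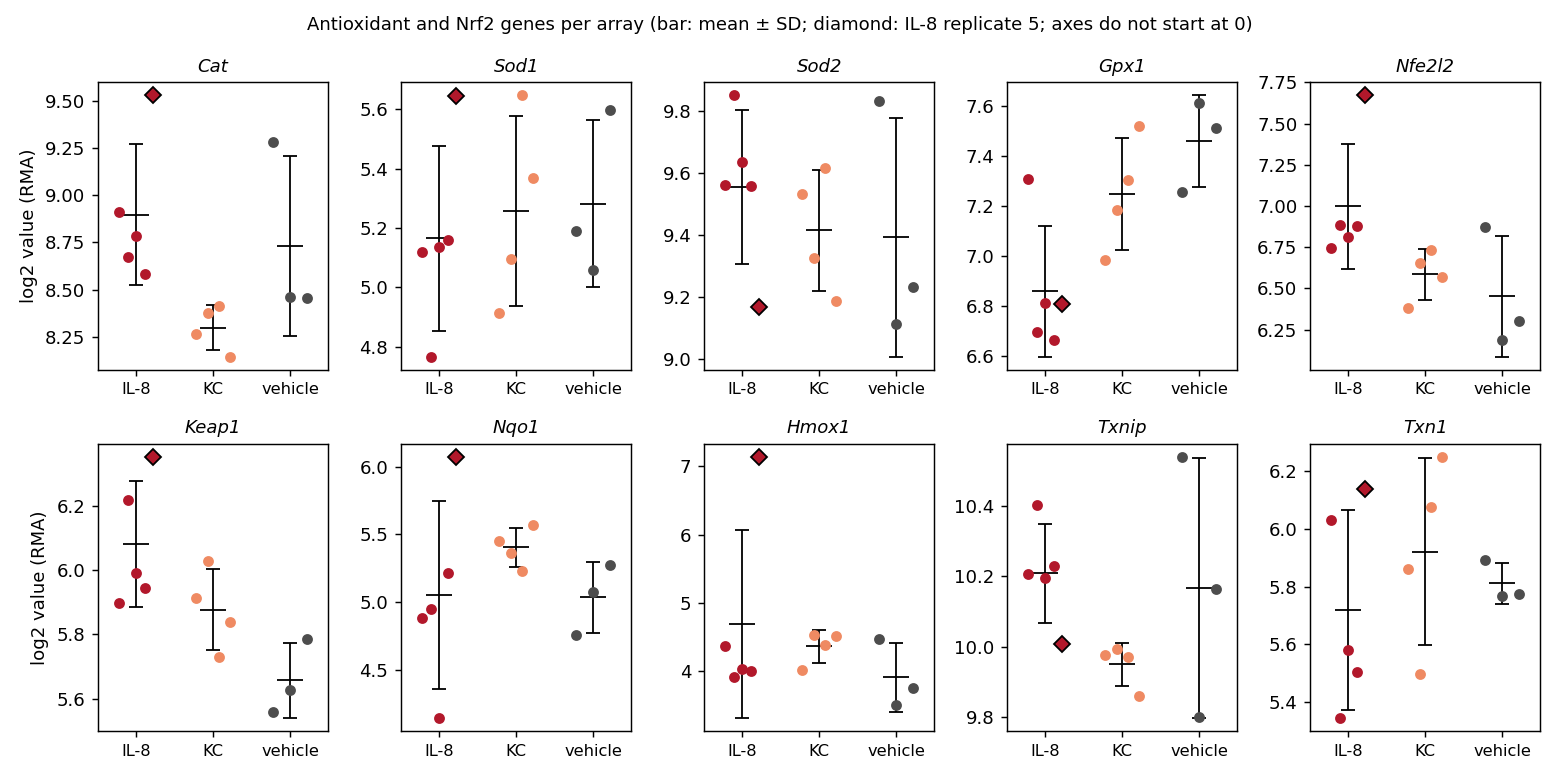
Log2 level (y axis, RMA) of the 10 genes on each array, in IL-8 (5), KC (4) and vehicle (3) mice from left to right; bars give the mean ± SD and the outlined diamond is IL-8 replicate 5. The diamond is the highest of the 12 points for Cat, Nfe2l2, Keap1, Nqo1 and Hmox1, and the IL-8 points lie above the vehicle points without overlap for Keap1 only.

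The superoxide dismutases showed no difference beyond the spread between arrays. Sod1, the cytosolic copper-zinc enzyme, had levels of 5.12, 4.77, 5.14, 5.16 and 5.65 on IL-8 replicates 1 to 5, of 4.91, 5.10, 5.65 and 5.37 on KC replicates 1 to 4, and of 5.19, 5.06 and 5.60 on vehicle replicates 1, 2 and 4. The 3 groups covered each other, with one high array in each. The log2 fold change was -0.12 for IL-8 versus vehicle (95% interval -0.55 to 0.31), -0.03 for KC versus vehicle (-0.49 to 0.44) and -0.09 for IL-8 versus KC (-0.50 to 0.31), and each turned sign when some single arrays were left out. Sod2, the mitochondrial manganese enzyme, had 9.56, 9.85, 9.64, 9.56 and 9.17 in IL-8 mice, 9.53, 9.33, 9.62 and 9.19 in KC mice, and 9.83, 9.11 and 9.23 in vehicle mice. Here too the groups overlapped fully, and IL-8 replicate 5, high for other genes, was the lowest IL-8 array. Its log2 fold changes were 0.16 (-0.26 to 0.59), 0.02 (-0.42 to 0.47) and 0.14 (-0.17 to 0.45) in the same order of comparisons. In IL-8 versus vehicle the limma adjusted p was 0.745 for Sod1 and 0.639 for Sod2.

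Catalase, the peroxisomal enzyme that splits hydrogen peroxide, was higher in IL-8 than in KC muscle on every array. Its levels were 8.91, 8.67, 8.78, 8.59 and 9.53 on IL-8 replicates 1 to 5, 8.26, 8.38, 8.41 and 8.15 on KC replicates 1 to 4, and 9.28, 8.46 and 8.46 on vehicle replicates 1, 2 and 4. The lowest IL-8 array thus lay above the highest KC array, while the vehicle group spanned most of the IL-8 range, with replicate 1 high and the other two low. The IL-8 group averaged 8.90 ± 0.37 (SD, n = 5) and the KC group 8.30 ± 0.12 (SD, n = 4), a 1.51-fold difference (log2 fold change 0.60, SE 0.17). It missed the threshold narrowly in limma (adjusted p = 0.102), and the exact two-sided permutation test gave p = 0.0159, where 126 splits allow 0.00794 at the least. Without IL-8 replicate 5 the log2 difference was 0.44. All 4 KC arrays also lay below all 3 vehicle arrays (vehicle mean 8.73 ± 0.47, log2 fold change -0.43, 95% interval -0.91 to 0.04, limma adjusted p = 0.994, exact p = 0.0286, the smallest that 35 splits allow). That gap was mostly vehicle replicate 1: the KC mean differed by -0.98 from this array and by -0.16 from vehicle replicates 2 and 4, the arrays with liver transcripts, and catalase is itself abundant in liver. In IL-8 versus vehicle the log2 fold change of Cat was 0.16 (-0.38 to 0.71) and its sign depended on the liver transcript arrays: it was 0.45 within those arrays (IL-8 replicate 1 minus vehicle replicates 2 and 4) and -0.39 within the rest (IL-8 replicates 2 to 5 minus vehicle replicate 1). The part of the liver transcripts in these differences was not tested.

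Gpx1, the cytosolic selenoenzyme that reduces hydrogen peroxide with glutathione, was the gene of the 10 with the smallest p in IL-8 versus vehicle, and it was lower. Levels were 7.31, 6.69, 6.81, 6.66 and 6.81 in IL-8 mice, 6.98, 7.18, 7.30 and 7.52 in KC mice, and 7.26, 7.61 and 7.51 in vehicle mice. Of the 5 IL-8 arrays, 4 were below every vehicle array and every KC array, and IL-8 replicate 1, one of the arrays with liver transcripts, was the exception at 7.31. The group means were 6.86 ± 0.26 (SD, n = 5), 7.25 ± 0.23 (SD, n = 4) and 7.46 ± 0.18 (SD, n = 3) in IL-8, KC and vehicle mice. The IL-8 level was 0.659 times the vehicle level (log2 fold change -0.60, 95% interval -0.96 to -0.24, limma adjusted p = 0.106, exact p = 0.0357, with 0.0179 the least that 56 splits allow). The call turned on single arrays: Gpx1 passed in limma without IL-8 replicate 1 (log2 fold change -0.71, adjusted p = 0.0458) and without vehicle replicate 1 (-0.70, adjusted p = 0.0282), and the adjusted p was 0.346 without vehicle replicate 2. Over all 23185 genes, 1227 were called without IL-8 replicate 1, 3338 without vehicle replicate 1 and 0 without vehicle replicate 2. Within the arrays with liver transcripts the difference was -0.25, and within the other arrays it was -0.51. With those arrays as a block it was -0.39. IL-8 versus KC gave -0.39 (-0.72 to -0.06, limma adjusted p = 0.186, exact p = 0.0556), and KC versus vehicle gave -0.21 (-0.59 to 0.16). Short genes as a class were lower in IL-8 muscle: over all 23185 genes the log2 fold change had a Spearman correlation of 0.27 with gene span, a description across genes, which are not independent. With that trend removed from each array, an alternative chosen after seeing the data, Gpx1 was at -0.42. How much of its difference goes with that trend was not tested. In bulk muscle, fewer cells of a type and less RNA in each cell cannot be told apart.

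**Figure D2:**
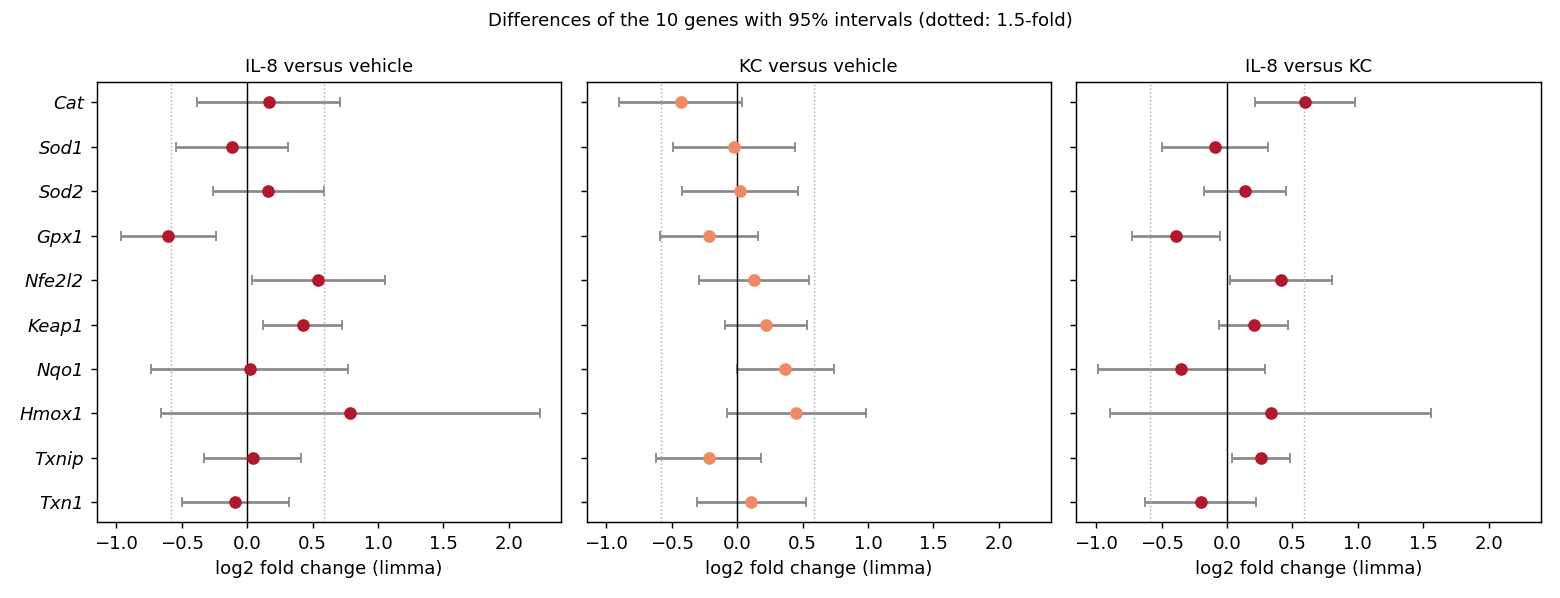
Log2 fold change (x axis) of the 10 genes in IL-8 versus vehicle, KC versus vehicle and IL-8 versus KC, with limma 95% intervals; dotted lines mark a 1.5-fold change. The interval excludes 0 for Gpx1, Nfe2l2 and Keap1 in the first panel, for Nqo1 in the second and for Cat, Gpx1, Nfe2l2 and Txnip in the third, before any correction for the number of genes, and it is widest for Hmox1 in IL-8 mice.

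Nrf2 itself and its inhibitor were both higher in IL-8 muscle before correction. Nfe2l2 stood at 6.74, 6.89, 6.81, 6.88 and 7.67 in IL-8 mice, at 6.38, 6.66, 6.73 and 6.57 in KC mice, and at 6.87, 6.19 and 6.30 in vehicle mice. All 5 IL-8 arrays were above all 4 KC arrays, though the lowest IL-8 array cleared the highest KC array only narrowly, and vehicle replicate 1 lay among the IL-8 arrays. The log2 fold change was 0.54 in IL-8 versus vehicle (0.03 to 1.05, limma adjusted p = 0.208, exact p = 0.107) and 0.41 in IL-8 versus KC (0.02 to 0.80, limma adjusted p = 0.228, exact p = 0.0238). Without IL-8 replicate 5 these were 0.38 and 0.24. Without vehicle replicate 1, IL-8 versus vehicle gave 0.75 and passed (limma adjusted p = 0.0553). That fit kept only the vehicle arrays with liver transcripts, and it called 3338 of all 23185 genes. Within the arrays with liver transcripts the difference was 0.50, and within the other arrays it was 0.19. KC versus vehicle gave 0.13 (-0.29 to 0.55), the KC mean differing by 0.34 from vehicle replicates 2 and 4 and by -0.29 from vehicle replicate 1.

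Keap1, the cysteine-rich adaptor that senses oxidants and marks Nrf2 for ubiquitination, had levels of 5.90, 6.22, 5.99, 5.95 and 6.35 in IL-8 mice, 5.92, 6.03, 5.73 and 5.84 in KC mice, and 5.56, 5.63 and 5.79 in vehicle mice. Every IL-8 array exceeded every vehicle array, and the KC arrays lay between and overlapped both. The means were 6.08 ± 0.20 (SD, n = 5), 5.88 ± 0.13 (SD, n = 4) and 5.66 ± 0.12 (SD, n = 3), in that order of groups. In IL-8 versus vehicle the fold was 1.34 (log2 fold change 0.42, 0.12 to 0.73, limma adjusted p = 0.132, exact p = 0.0357). The sign was positive in both sets of arrays, 0.19 within those with liver transcripts and 0.57 within the others, and the log2 fold change stayed between 0.36 and 0.49 when any 1 array was left out. Neighbouring groups were closer: KC versus vehicle was 0.22 (-0.09 to 0.54) and IL-8 versus KC was 0.20 (-0.06 to 0.47).

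Neither Hmox1 nor Nqo1, both named above as Nrf2 targets, was higher throughout the IL-8 group. Hmox1, heme oxygenase 1, which breaks heme into biliverdin, carbon monoxide and iron, had 4.36, 3.91, 4.03, 4.00 and 7.14 in IL-8 mice, 4.01, 4.52, 4.38 and 4.51 in KC mice, and 4.47, 3.50 and 3.74 in vehicle mice. A single array, IL-8 replicate 5, carried the IL-8 difference, and the other 4 IL-8 arrays fell within the vehicle range. The log2 fold change of 0.79 in IL-8 versus vehicle had an interval of -0.66 to 2.23 (limma adjusted p = 0.495, exact p = 0.5) and came to 0.17 without that array. IL-8 versus KC gave 0.33 with it and -0.28 without it. KC versus vehicle gave 0.45 (-0.08 to 0.98, limma adjusted p = 0.994), with the KC mean 0.74 above vehicle replicates 2 and 4 and a difference of -0.11 from vehicle replicate 1.

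Nqo1, the quinone reductase that is a standard readout of Nrf2 activity, had 4.88, 4.95, 4.14, 5.22 and 6.07 in IL-8 mice, 5.45, 5.36, 5.23 and 5.57 in KC mice, and 4.76, 5.07 and 5.27 in vehicle mice. The IL-8 arrays held both the lowest and the highest value, and the KC arrays were the tightest group (SD 0.70 for IL-8, 0.14 for KC and 0.26 for vehicle). KC versus vehicle gave a log2 fold change of 0.37 (0.00 to 0.74, limma adjusted p = 0.994, exact p = 0.0857), the one difference of the 10 genes in that comparison with an unadjusted limma p under 0.05. IL-8 versus vehicle gave 0.02 (-0.74 to 0.77), and -0.24 without IL-8 replicate 5. For IL-8 versus KC the value was -0.35 (-0.99 to 0.29).

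In the thioredoxin pair, Txn1, the small dithiol protein that feeds electrons to peroxiredoxins, ran at 6.03, 5.35, 5.58, 5.50 and 6.14 in IL-8 mice, 5.86, 5.50, 6.07 and 6.25 in KC mice, and 5.89, 5.77 and 5.77 in vehicle mice. All groups overlapped, with log2 fold changes of -0.09 (-0.50 to 0.32), 0.11 (-0.31 to 0.53) and -0.20 (-0.63 to 0.22) in IL-8 versus vehicle, KC versus vehicle and IL-8 versus KC. Txnip, which binds and inhibits thioredoxin, limits glucose uptake and is switched on by glucose through MondoA, had 10.21, 10.40, 10.20, 10.23 and 10.01 in IL-8 mice, 9.98, 9.99, 9.97 and 9.86 in KC mice, and 10.54, 9.80 and 10.16 in vehicle mice. All 5 IL-8 arrays were above all 4 KC arrays, IL-8 replicate 5 being the lowest of the 5, and the vehicle arrays covered the whole range. The IL-8 versus KC difference was small, 1.20 times (log2 fold change 0.26, 0.04 to 0.48, limma adjusted p = 0.185, exact p = 0.0159). IL-8 versus vehicle gave 0.04 (-0.33 to 0.41), and KC versus vehicle gave -0.22 (-0.62 to 0.18), with a KC difference of -0.59 from vehicle replicate 1 and of -0.03 from vehicle replicates 2 and 4.

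IL-8 replicate 5 was also high for genes outside the 10. It was the highest of the 12 arrays for 5 of the 10 genes and for 9 of 29 measured Nrf2 target genes outside the 10 (31%), beside 9.47% of all genes. Other lists had similar shares: 31.8% of Nrf2 regulators and partners, 28.6% of superoxide and copper genes, 25% of Txnip regulators and 38.5% of neutrophil markers. The share was 8% for glutathione enzymes and 0% for heme and iron genes. Gclm, the modifier subunit of the glutathione-synthesizing ligase, reached 7.79 there, against 5.41 to 5.84 on the other 11 arrays. Srxn1, the sulfiredoxin that reactivates oxidized peroxiredoxins, reached 7.06 (4.43 to 5.11 elsewhere), and glutathione reductase Gsr reached 6.85 (5.10 to 5.64 elsewhere). Thioredoxin reductase Txnrd1 stood at 7.83, the growth inhibitor Osgin1, named for its response to oxidative stress, at 5.83 and the efflux pump Abcc1 at 6.90. On the other 4 IL-8 arrays Gclm was 5.83, 5.47, 5.43 and 5.84, close to the 5.41 to 5.80 of the KC and vehicle arrays. For Abcc1 and Osgin1, IL-8 replicates 2, 3 and 4 also lay above every KC and vehicle array. Not all targets were high there: Gclc was 5.61, inside the range of the other arrays, as was the ferritin gene Fth1 at 11.25. The cystine carrier subunit Slc7a11 was 1.42, but it read only 1.21 to 1.81 over all arrays, below every array median. At so low a level a response may not show. Among Nrf2 partners, Bach1, a repressor at antioxidant response elements, was 6.60 on this array (5.17 to 5.70 on the other 4 IL-8 arrays), the small Maf gene Mafg 5.93 and the autophagy receptor Sqstm1, which can displace Nrf2 from Keap1, 10.19 (9.11 to 9.42 on the other 4). The metallothioneins Mt1 and Mt2, which bind zinc and copper, stood at 10.41 and 10.15, where the 4 other IL-8 arrays averaged 7.96 ± 0.37 and 5.92 ± 0.78 (SD, n = 4).

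**Figure D3:**
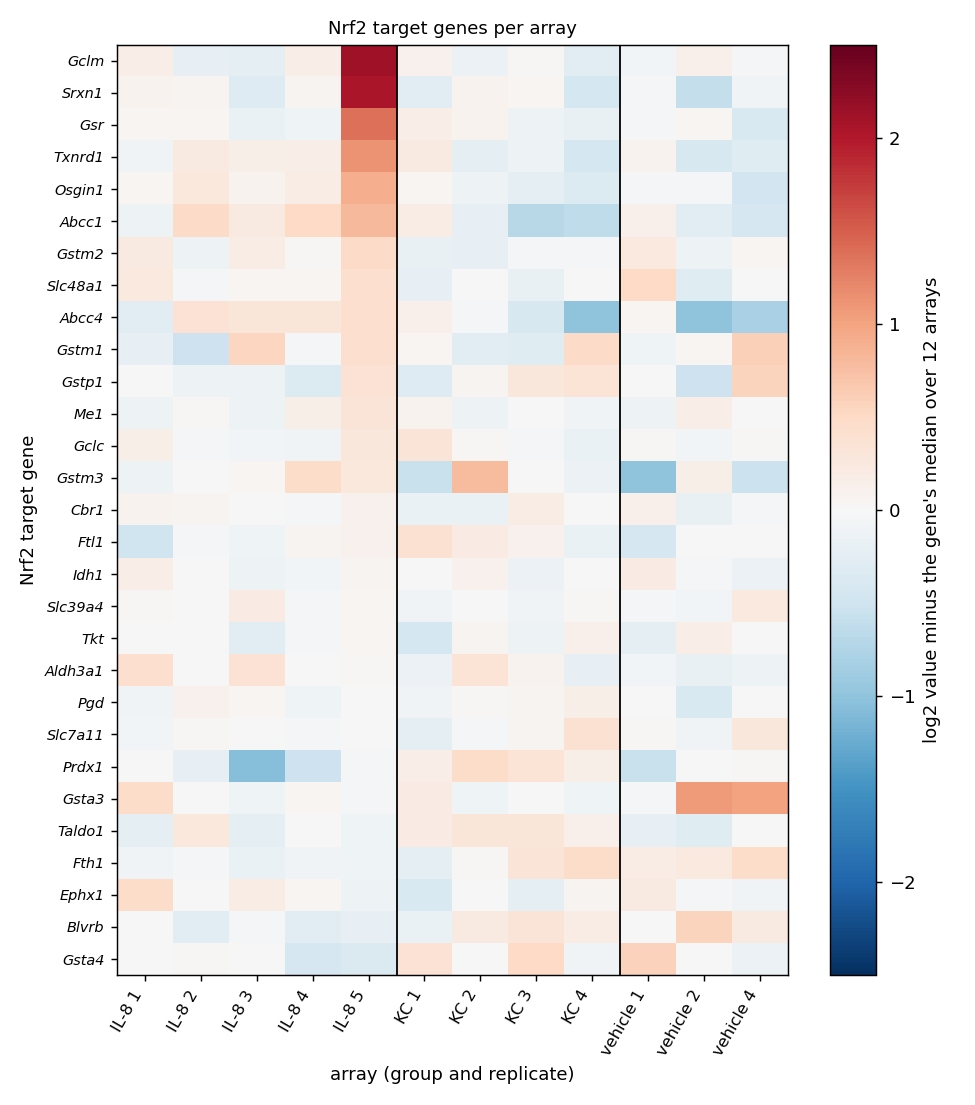
Heat map of 29 Nrf2 target genes (rows) on the 12 arrays (columns, IL-8, KC and vehicle from left to right), colored by the log2 level minus the gene's median over the arrays. IL-8 replicate 5 is the darkest red column for Gclm, Srxn1, Gsr, Txnrd1 and Osgin1, and most of the lower rows show no such column.

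Over the genes of each list, IL-8 replicate 5 exceeded the mean of IL-8 replicates 1 to 4 by a median of 0.56 for the 10 genes and 0.24 for the 29 targets, beside -0.01 for all genes. The median was 0.22 for neutrophil markers, 0.12 for Txnip regulators and related genes, and between -0.66 and 0.05 for the other lists. More than 1 above that mean were 2 of the 10 genes (Hmox1 and Nqo1) and 4 of the targets, beside 0.703% of all genes. Low values were as common on this array: over all genes 163 were more than 1 above that mean and 173 more than 1 below. Below it by that much were 0 of the 10 genes, 0 of the targets and 3 of 23 heme and iron genes. The transferrin receptor gene Tfrc was 5.81 there, against 7.26 to 9.35 on the other 11 arrays. The mean of 13 macrophage markers on this array was 4.22, against 4.29 to 4.85 on the other IL-8 arrays, 4.02 to 4.91 in KC mice and 4.42 to 4.99 in vehicle mice, and none of the 13 was highest there. The mean of 14 hepatocyte markers was 2.89, near the arrays without liver transcripts. The mean of 6 erythroid markers was 2.82, within the range of the others. Neutrophil markers averaged 2.66, the highest of the IL-8 arrays (2.32 to 2.56 on the other 4) and within the vehicle range of 2.45 to 2.69, and 5 of 13 were highest on this array. All these neutrophil means lay below the array medians (3.31 to 3.48), where small differences say little about cell content. S100a8 was at 2.60 and highest there, while Ly6g was at 1.86, below its 2.70 on vehicle replicate 2. The part of any of these cell types in the high values of this array was not tested.

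**Figure D4:**
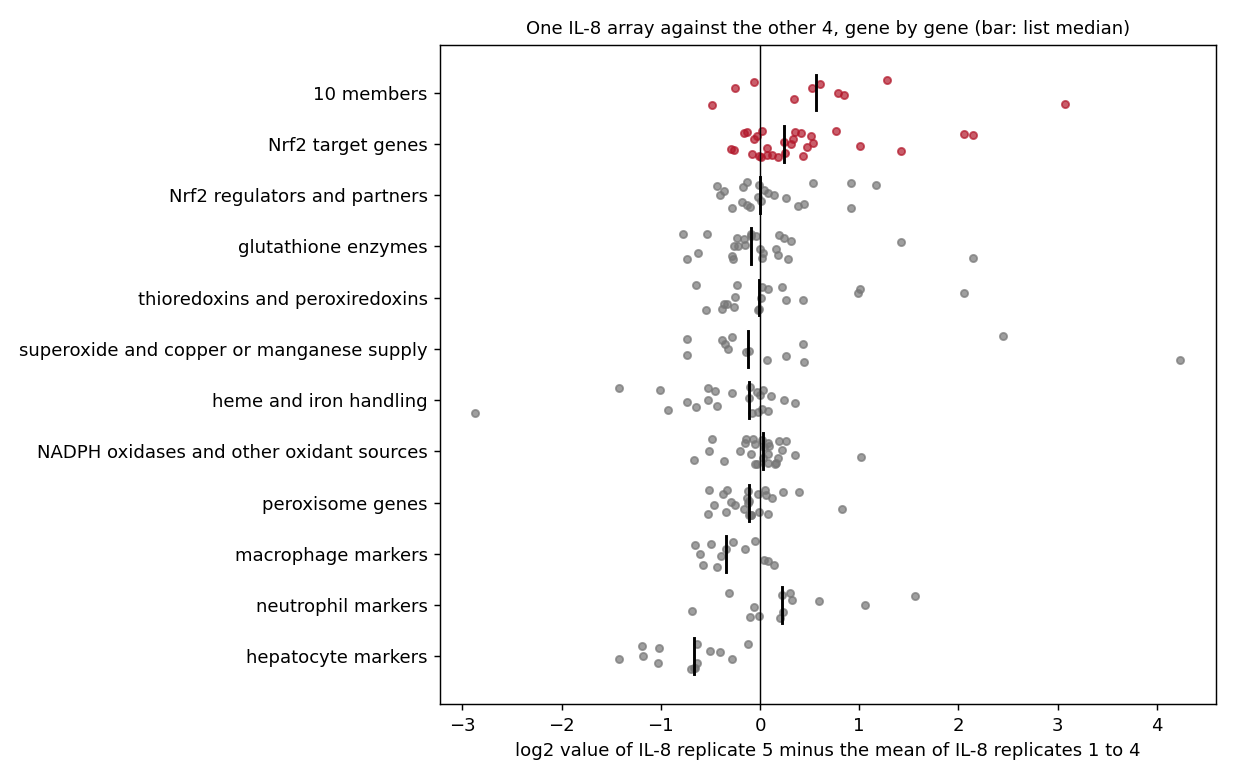
Level of each gene on IL-8 replicate 5 minus the mean of IL-8 replicates 1 to 4 (x axis, log2), by gene list (rows), with 1 point a gene and a black bar at the list median. The 10 genes and the Nrf2 targets, in red, have medians of 0.56 and 0.24 with a tail to the right, and the 2 points farthest right in the copper list are Mt1 and Mt2.

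Promoters were read for the core of the antioxidant response element, TGACNNNGC on either strand, in windows running from 250 bases before to 50 after the start of each gene (RefSeq, GRCm38.p6). The core was present in 2 of 9 members with a window, Nfe2l2 and Sod1, in 6 of 22 targets with one, and in 12.5% of all 27025 genes (the first window listed for each). The stretches below, with the core in capitals, are 4 chosen from genes that were highest on IL-8 replicate 5. Srxn1, Me1 and Abcc4, also highest there, have the core too and are not shown, in Srxn1 after the start and in Me1 across it. The Txnrd1 match is not in its first listed window, so Txnrd1 is not among the 6, and Mt2 is not one of the targets. Prdx1, Gsta3 and Pgd have the core in a window but were not highest on that array. Osgin1, Gstm2 and Mt1 were highest there and have no match. The Nfe2l2 stretch lies at chr2:75704865-75704913 on the minus strand, Gclm at chr3:122245393-122245461, Txnrd1 (1 of its 3 listed starts) at chr10:82859084-82859152 and Mt2 at chr8:94172509-94172577, these on the plus strand. In Gclm and Txnrd1 the core reads on the opposite strand, so the capitals are its reverse complement.
Nfe2l2: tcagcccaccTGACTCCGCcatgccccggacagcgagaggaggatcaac
Gclm: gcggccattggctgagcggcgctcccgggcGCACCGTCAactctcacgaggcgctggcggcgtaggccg
Txnrd1: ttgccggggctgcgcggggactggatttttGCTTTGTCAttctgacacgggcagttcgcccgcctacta
Mt2: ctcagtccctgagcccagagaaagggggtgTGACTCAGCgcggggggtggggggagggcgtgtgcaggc
The core begins 240 bases before the start in Nfe2l2, 134 in Gclm, 92 in Txnrd1 and 79 in Mt2. A match is a description of letters and not of a bound site, and Nqo1, Cat, Gpx1 and Keap1 have no match in their windows.

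Other short motifs were read in the same windows. The E-box CACGTG, the same on both strands, was in 0 of the 9 members and 7.24% of all genes. The FoxO motif GTAAACA was in 1 member, Txnip, and in 3.55% of all genes. The Txnip stretch, at chr3:96557806-96557872 on the plus strand with the motif in capitals 121 bases before the start, is shown because Txnip was one of the 3 members whose IL-8 and KC arrays did not overlap.
Txnip: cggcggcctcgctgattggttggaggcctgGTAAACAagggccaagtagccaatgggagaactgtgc

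Across the wider pathway, few genes passed, and the number of calls depended on single arrays. For IL-8 versus vehicle limma called 0 genes of any kind without IL-8 replicate 2, 3 or 4 or vehicle replicate 2 or 4, and 7 without IL-8 replicate 5. The IL-8 versus KC fit called 0 without IL-8 replicate 2, 3 or 4 or KC replicate 3, 1 without KC replicate 4 and 8 without IL-8 replicate 5. Of the 29 Nrf2 targets, 0 were called in any of the 3 comparisons in limma (7, 3 and 6 at an unadjusted p under 0.05 in IL-8 versus vehicle, KC versus vehicle and IL-8 versus KC; 2, 1 and 5 by the methods' t-test and 3, 2 and 5 by the exact permutation test), and their median log2 fold changes were 0.08, -0.0038 and 0.08. The smallest p in IL-8 versus vehicle belonged to Fth1, the ferritin heavy chain, with log2 fold change -0.39 and all 5 IL-8 arrays below the vehicle arrays (limma adjusted p = 0.11), and to the efflux pump Abcc4 at 0.81 (adjusted p = 0.116). For KC versus vehicle they were transaldolase Taldo1 at 0.41 and the glutathione transferase Gsta3 at -0.68 (adjusted p = 0.994 for both). Gsta3 was at 2.25 on IL-8 replicate 1 and at 2.86 and 2.79 on vehicle replicates 2 and 4, the arrays with liver transcripts, and between 1.68 and 2.00 on the others. Between IL-8 and KC they were Abcc1 at 0.71 (adjusted p = 0.106) and the peroxiredoxin Prdx1 at -0.64, with IL-8 below KC on every array (adjusted p = 0.116).

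Of 22 regulators and partners of Nrf2, 1 rose in IL-8 versus vehicle muscle and 0 fell. It was Syvn1, an endoplasmic reticulum ubiquitin ligase (Hrd1) that can degrade Nrf2, with 4.67 ± 0.12 in IL-8 mice (SD, n = 5) and 3.88 ± 0.36 in vehicle mice (SD, n = 3), a log2 fold change of 0.79 (SE 0.16, limma adjusted p = 0.0908) and no overlap. A further 8 were higher and 1 lower at an unadjusted p under 0.05, and the list's median log2 fold change was 0.34, beside -0.07 for all genes. Between IL-8 and KC 0 passed both limits: Syvn1 at 0.53 (adjusted p = 0.0642) and Rbx1, the RING subunit that works with Cul3, at -0.55 (adjusted p = 0.0721) passed the limit on p but not that on the fold. KC versus vehicle gave 0 calls, with Rbx1 at 0.56 and Dpp3, which competes for Keap1, at 0.31 (adjusted p = 0.994 for both). Cul3 itself was level, between 9.49 and 9.76 in IL-8 mice, 9.21 and 9.91 in KC mice, and 9.40 and 9.63 in vehicle mice.

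Around Gpx1, 25 glutathione genes were measured, of which 1 rose and 2 fell in IL-8 versus vehicle. Oplah, which recycles 5-oxoproline to glutamate, rose by a log2 fold change of 0.83 (limma adjusted p = 0.0995). The microsomal glutathione transferase Mgst1 (-0.73, adjusted p = 0.0908) and the glutaredoxin Glrx3 (-0.74, adjusted p = 0.0914) fell, with every IL-8 array below every vehicle array for both. Between IL-8 and KC the glutathione-degrading cyclotransferases parted: Chac1 rose by 0.93 (adjusted p = 0.0642) and Chac2 fell by 0.67 (adjusted p = 0.0717), both without overlap. Chac1 was 6.65, 6.74, 7.06, 6.67 and 6.96 in IL-8 mice and 5.82, 5.43, 6.23 and 6.08 in KC mice, and vehicle replicate 1 exceeded them all at 7.22, with vehicle replicates 2 and 4 at 5.70 and 5.99. KC muscle gave 0 calls against vehicle, and the smallest p belonged to the plasma peroxidase Gpx3 at -0.80 and Mgst1 at -0.39 (adjusted p = 0.994 for both).

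Around the dismutases, 14 genes of superoxide, copper and manganese supply were measured, and 1 rose and 1 fell in IL-8 versus vehicle. The copper pump Atp7a rose, to 4.87 ± 0.15 in IL-8 mice against 4.24 ± 0.16 in vehicle mice (log2 fold change 0.63, limma adjusted p = 0.0908), and the copper chaperone of cytochrome oxidase, Cox17, fell (-0.83, adjusted p = 0.0954). The groups did not overlap for either gene. Against KC 0 were called, with the extracellular dismutase Sod3 at 0.55, above KC on every array but short of the fold minimum (adjusted p = 0.0671), and Cox17 at -0.69 (adjusted p = 0.105). For KC versus vehicle 0 were called, with the copper transporter Slc31a2 at -0.48 and Atp7a at 0.38 (adjusted p = 0.994 for both). None of 19 thioredoxin and peroxiredoxin genes was called in limma (3, 1 and 6 at an unadjusted p under 0.05 in the 3 comparisons; 2, 1 and 4 by the methods' t-test and 1, 1 and 6 by the exact permutation test). The values with the smallest p were Txndc17 at -0.83 and nucleoredoxin Nxn at 0.37 in IL-8 versus vehicle (adjusted p = 0.12 and 0.129), Prdx1 at 0.45 and Nxn at 0.29 in KC versus vehicle (adjusted p = 0.994), and Txnrd3 at 0.46 and Txndc17 at -0.71 in IL-8 versus KC (adjusted p = 0.109 and 0.115).

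Around Txnip, 20 regulators and related alpha-arrestins were measured, and 2 rose in IL-8 versus vehicle with 0 lower. Arrdc2, an alpha-arrestin like Txnip, was 6.75, 7.15, 7.02, 7.22 and 6.76 in IL-8 mice, 6.78, 6.72, 6.16 and 5.73 in KC mice, and 5.85, 5.50 and 5.68 in vehicle mice. IL-8 and vehicle arrays did not overlap, with a log2 fold change of 1.30 (SE 0.15, limma adjusted p = 0.0462), and the KC arrays ran from the vehicle range into the IL-8 range (KC versus vehicle 0.67, adjusted p = 0.994). Mlxip, the gene of MondoA, rose by 1.14 in IL-8 versus vehicle (adjusted p = 0.0988) and by 1.08 in IL-8 versus KC (adjusted p = 0.0696), overlapping in both. The AMP-activated kinase subunit Prkaa2, whose kinase phosphorylates Txnip, rose by 0.78 in IL-8 versus KC (adjusted p = 0.0721), where 2 of the list rose and 0 fell. In KC versus vehicle 0 were called, and Arrdc3 was at 0.34 (adjusted p = 0.994).

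Of 27 NADPH oxidase subunits and other oxidant sources, 1 rose in IL-8 versus vehicle: Xdh, the xanthine dehydrogenase, with a log2 fold change of 0.87 (limma adjusted p = 0.0957) and overlapping groups. It was at 0.45 in IL-8 versus KC (adjusted p = 0.108) and at 0.42 in KC versus vehicle (adjusted p = 0.994), where the lipoxygenase Alox15 was at -0.41. In IL-8 versus KC 0 were called, though Rac1, a switch of the oxidase, was 0.49 higher without overlap (adjusted p = 0.0671). Of 23 heme and iron genes 0 were called in limma in any comparison (6, 3 and 3 at an unadjusted p under 0.05 in the 3 comparisons; 4, 0 and 2 by the methods' t-test and 6, 0 and 3 by the exact permutation test). The heme synthesis enzyme Cpox was at 0.82 in IL-8 versus vehicle (adjusted p = 0.124), and biliverdin reductase Blvra, which acts after Hmox1, at -0.56 in IL-8 versus KC with no overlap (adjusted p = 0.0721), followed by the iron carrier Slc11a2 at 0.67 (adjusted p = 0.14). The liver genes hepcidin (Hamp) and hemopexin (Hpx) were at -3.25 and -1.46 in KC versus vehicle (adjusted p = 0.994), and Hamp was 5.49 on IL-8 replicate 1 and 6.86 and 5.50 on vehicle replicates 2 and 4, against 1.10 to 1.93 on the other 9 arrays. Of 25 peroxisome genes, the compartment of catalase, 0 were called (6, 1 and 6 at an unadjusted p under 0.05; 1, 0 and 3 by the methods' t-test and 1, 1 and 4 by the exact permutation test). The import receptor gene Pex5 was at 0.71 and Acox3 at 0.68 in IL-8 versus vehicle (adjusted p = 0.129 and 0.182), Hao1 at -0.42 and Pex5 at 0.53 in KC versus vehicle (adjusted p = 0.994), and Pex7 at -0.42 and Pxmp4 at 0.29 in IL-8 versus KC (adjusted p = 0.128).

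The gene most like each member over the 12 arrays, among named genes above the median level, was Nfkbib for Sod1 (Pearson r 0.885), Ppif for Sod2 (0.96), Acot2 for Cat (0.95), Atpif1 for Gpx1 (0.98), Pvr for Nfe2l2 (0.95), Chpf2 for Keap1 (0.95), Rad23b for Hmox1 (0.93), Serpinb6a for Nqo1 (0.92), Ccdc59 for Txn1 (0.89) and Rae1 for Txnip (0.97). Without IL-8 replicate 5, over 11 arrays, r was 0.98 for Gpx1 with Atpif1 and 0.975 for Txnip with Rae1, but 0.37 for Hmox1 with Rad23b, so the likeness of Hmox1 rested on that array. Each is the highest of many correlations over arrays that share groups and processing, and is a description.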

How the data were processed

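RNA from mouse skeletal muscle was labelled and hybridised to 12 arrays. The authors deposited 1 table of log2 values made by RMA, named in the submitters' processing notes with affy 1.36.1 and R 2.15.1; whether the arrays were processed in 1 run, and the genome build behind the gene entries, are not stated in the sources used. RMA makes the distributions of arrays alike and compresses differences of dim genes. Symbols came from the platform annotation: 23185 entries had 1 symbol, and 2021 unnamed entries were left out of the main test.

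Each comparison was fitted on its own arrays with limma 3.58.1 (lmFit, eBayes, R 4.3.3) over all 23185 genes, with Benjamini-Hochberg adjustment. Called meant an adjusted p no higher than 0.1 with a change of 1.5-fold or more, the limits of the study's methods, whose marker selection module was not run here. Exact two-sided permutation tests used the difference of means. What is called the methods' t-test was Welch's t-test, which allows unequal variances. The study's methods name unpaired t-tests for comparisons of 2 groups, and its array analysis used the marker selection module. Intervals are 95%. The number of arrays limits the precision. The fit was tested on simulated data. Figures were drawn with matplotlib 3.10.9.

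All 10 members were named, with up to 4 called genes of each pathway list, or, failing any, its 2 genes of smallest p, and the gene whose values correlated best with each member. Values of other list genes, those of IL-8 replicate 5 above all, were chosen after they were seen. The members and lists were chosen with earlier results of these data known. Alternatives covered the test, normalization, filters, variance model, thresholds, replicate block, the arrays with liver transcripts, gene span and leaving out each array. Promoter sequences came from RefSeq (GRCm38.p6), with 9 of 10 members matched by Entrez identifier.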

Additional observations from a re-analysis of the deposited data

Results flagged for a closer look

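Among the 10 genes and the 29 Nrf2 targets in the IL-8 and KC groups, 78 sets of a gene and a group were examined. The search was for an array far from the rest of its group, judged by its gap to the next array over the group's range. Of the 78 sets, 11 had one. By chance such a rule marks about 1 in 20 independent sets. These sets share arrays, and the genes were chosen with earlier results known, so the count is no test. In 7 of the 11 the distant array was IL-8 replicate 5, at the high end. There, Nfe2l2 was 7.67 (6.74 to 6.89 on the other 4 IL-8 arrays), Hmox1 7.14 (3.91 to 4.36), Gclm 7.79 (5.43 to 5.84), Srxn1 7.06 (4.71 to 5.11), Txnrd1 7.83 (6.63 to 6.93), Gsr 6.85 (5.30 to 5.53) and Osgin1 5.83 (4.96 to 5.19). IL-8 replicate 1, one of the arrays with liver transcripts, was high for Gpx1 at 7.31 (6.66 to 6.81 on the others) and for Gsta3 at 2.25 (1.69 to 1.85), and low for Abcc4 at 4.72 (5.30 to 5.42). KC replicate 4 was low for Txnip at 9.86 (9.97 to 9.99 on the other 3 KC arrays).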

How the results depend on the processing

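Of 650 values of single genes under the alternatives, 606 kept their direction and their side of the threshold, 7 passed it anew, 34 changed sign and 3 moved by more than the spread between replicates. Some alternatives, such as another test, other genes tested or another limit, left each log2 fold change as it was. No sign could change in those, and a stricter limit on p could add no call, so part of the 606 was fixed in advance. None of the 10 genes was called in KC versus vehicle under any alternative run. In IL-8 versus vehicle the count was 1 (Gpx1) with dim genes left out, beside 944 of the 11592 genes then tested. With array weights it was 1 (Gpx1), beside 2083 of 23185. It ranged from 0 to 2 when single arrays were left out. Gpx1 passed without IL-8 replicate 1, beside 1227 of 23185 genes, and Gpx1 and Nfe2l2 without vehicle replicate 1, beside 3338. The main fit called 592. In IL-8 versus KC the count was 1 (Cat) with each array centred on its median, beside 623 of 23185 genes. With dim genes left out it was 1 (Cat), beside 895 of 11592.

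In IL-8 versus vehicle, Nqo1 was -0.11 with quantile normalization, -0.19 with array weights and -0.019 with the replicate block, Txn1 0.0026 with median centring, Cat -0.0094 with the replicate block and -0.0062 with a block for the arrays with liver transcripts, and Txnip -0.078 with that block. Leaving out single arrays gave -0.24 to 0.25 for Nqo1, -0.14 to 0.23 for Txnip, -0.20 to 0.0022 for Txn1 and -0.24 to 0.042 for Sod1. In KC versus vehicle, Sod2 was -0.041 with quantile normalization and -0.044 with the replicate block, and Sod1 0.027 with median centring and 0.00068 with the gene span trend removed. Against vehicle replicate 1 alone, Sod1 was 0.068, Sod2 -0.42, Nfe2l2 -0.29 and Hmox1 -0.11, with no test. Leaving out single arrays gave -0.16 to 0.13 for Sod1, -0.12 to 0.24 for Sod2 and -0.0020 to 0.34 for Nfe2l2. In IL-8 versus KC, Hmox1 was -0.28 with the replicate block, which leaves out IL-8 replicate 5, and leaving out single arrays gave -0.28 to 0.53 for Hmox1 and -0.21 to 0.039 for Sod1. The cause of the other changes was not tested.

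Same-numbered arrays did not deviate together (correlations of -0.365 to 0.362 over the comparisons), so the numbers were not taken as pairs. The replicate block gave 0 members and 0 genes called in each comparison.

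Counts over all genes moved far more. In IL-8 versus vehicle, 592 became 117 with all 12 arrays in one fit, 0 by either the methods' t-test or exact permutation, 2 with quantile normalization, 944 with dim genes left out, 2083 with array weights, 2 at an adjusted p of at most 0.05, 0 with the block for the arrays with liver transcripts, 49 with the gene span trend removed, and 0 to 3338 without single arrays. Median centring gave 660, of which 83.9% were higher, against 68.6%. In IL-8 versus KC, 700 became 1 with all arrays in one fit, 0 by either of those tests, 1193 with array weights, 1 at an adjusted p of at most 0.05, 1147 with no fold minimum, and 0 to 1741 without single arrays. In KC versus vehicle it was 0 except 92 without vehicle replicate 1. With 3 to 5 arrays a group the intervals were wide, and a gene that was not called may still differ by an amount inside its printed interval.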

Other observations

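Outside the lists, and chosen after the values were seen, the genes that set IL-8 replicate 5 apart included muscle atrophy and stress genes. Fbxo32, the muscle ubiquitin ligase atrogin-1, was 10.70 there, against 7.06 to 8.13 on the other 11 arrays, and Trim63, the ligase MuRF1, was 10.26, against 8.14 to 8.80. Eda2r, a receptor of the TNF receptor family, stood at 7.41 (3.40 to 4.97 elsewhere), Gadd45a, a growth arrest gene, at 7.79 (5.95 to 6.52), the heat shock gene Hspa1a at 6.20 (2.24 to 5.00), the acetylcholine receptor kinase Musk at 7.15 (4.34 to 5.47) and the proteasome subunit Psmd11 at 9.43 (7.78 to 8.30). Vehicle replicates 2 and 4 had 32 and 15 genes more than 1 above every other array, beside 38 on IL-8 replicate 5.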
